A study of Rattus norvegicus with 12 samples.

Results

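The effect of CFA that is common to the thalamus and the rostral ventral medulla (RVM) of rats was measured by RNA sequencing of brain tissue, in a series on chronic orofacial pain. All 12 libraries of the series entered, and none was chosen or left out by a measured value. They form 4 groups of 3: thalamus with the treatment label 0.9% NS, thalamus with the label CFA, RVM with the label 0.9% NS, and RVM with the label CFA. NS is read here as normal saline, and its groups are called saline. The CFA effect is the treatment term of a model that also holds a term for region, so that it is the change averaged over both regions. It was estimated for 14671 of 34525 genes, those whose FPKM (sequenced fragments per gene, normalised for the length of the gene and for library size) averaged at least 1 over the 12 libraries. Ly75, at a mean of 1.0001 FPKM, lay just inside this limit, and the highest gene left out averaged 0.9998 FPKM. The labels give no strain, age, dose, injection site or time after treatment. They do not say whether libraries came from separate animals, or whether thalamus and RVM libraries with the same number came from the same animal, so p-values speak only of the spread among these libraries.

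CFA usually stands for complete Freund's adjuvant, killed mycobacteria in oil, given to cause a local inflammation that persists. The thalamus relays sensory signals, including those from the face, to the cortex. The RVM is a brainstem region whose descending projections facilitate or inhibit pain signals in the spinal cord and the trigeminal nuclei. In both regions microglia are the resident immune cells. When stimulated they, with astrocytes, raise genes for antigen presentation, complement, cytokines and acute-phase proteins, many of which are driven by interferons, NF-kappaB or STAT3. In bulk tissue, more cells of a type and more RNA per cell cannot be told apart.

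Each library held 14.94 to 19.24 M reads assigned to genes. Thalamic neuron markers summed to 327 FPKM in thalamus CFA 1, to 735 to 1456 FPKM in the other thalamus libraries and to 217 to 266 FPKM in RVM libraries. Hindbrain neuron markers summed to 4.27 to 11.7 FPKM in thalamus libraries and to 205 to 271 FPKM in RVM libraries. Both lists were thus higher in their own region, as the labels say. The extraction protocol mentions retinas, yet the 10 photoreceptor and retina genes found reached at most 1.16 FPKM in any library. Libraries in both CFA groups stood apart. The library labelled RVM CFA 2 correlated at 0.989 with the RVM saline mean and at 0.979 with the RVM CFA mean, over all genes tested, whereas RVM CFA 1 and 3 correlated at 0.970 and 0.976 with saline and at 0.983 and 0.986 with CFA. Thalamus CFA 1 and 2 carried choroid plexus and ependymal transcripts, 11 tested markers that summed to 10432 and 2527 FPKM, against 47.2 FPKM in thalamus CFA 3, 18.2 to 65.3 FPKM in thalamus saline and 20.4 to 35.8 FPKM in RVM. The choroid plexus sum of thalamus CFA 3 was within the thalamus saline range, though 5 of its 11 markers lay above every thalamus saline library. Calls that were lost without thalamus CFA 1 and 2 are given beside each gene group.

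CFA libraries of both regions shared higher levels of antigen presentation, complement and microglial genes, and smaller falls in cholesterol synthesis genes. Reactive astrocyte genes had a median change of 2.14 in the thalamus and 0.51 in the RVM, or 0.78 in the RVM without RVM CFA 2. Of the 20 tested, 14 passed the filter in saline libraries. Complement genes (2.53 and 1.07) and chemokine genes (1.80 and 0.55) also had larger medians in the thalamus, while those of cholesterol synthesis genes were -0.29 and -0.31. No gene passed an adjusted p below 0.05 by limma for a difference between regions. With limma and Benjamini-Hochberg adjustment over all genes tested, 745 genes (5.08% of 14671) were higher in CFA and 331 (2.26%) were lower at an adjusted p below 0.05, which is what "called", "rose" and "fell" mean from here on. Together these were 1076 genes, or 7.33%. The rises were the larger changes: 348 of them, and 4 of the falls, were over 2-fold. The filter averages CFA libraries too, so a gene near 0 in saline could enter only through its CFA levels. In saline libraries 575 of the 745 rises averaged at least 1 FPKM, as did all 331 falls. With the filter on saline libraries alone, 537 genes rose and 260 fell, so the balance of rises and falls is a description. Changes are log2 differences of FPKM + 1, so those of weakly expressed genes come out too small. The median change was 0.96 among the rises, -0.32 among the falls and -0.05 over all genes tested. When each library was rescaled to the same FPKM total the split became 786 rises and 79 falls, with a median over all genes of 0.02, so that 9.13% of calls were falls in place of 30.8%. The number of falls is thus tied to the scaling, and changes below are read against the median of all genes. At an unadjusted p below 0.05, 1510 genes were higher and 2236 lower, against 734 expected in both directions if no gene differed.

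The region fits hold the same libraries as the shared fit, so their values are given beside it as a description. In the thalamus alone 555 genes were higher (3.78%) and 39 lower (0.266%), 4.05% in all. In the RVM alone none was called (0.0%) by limma, or by limma-voom on recovered reads, while 886 genes were higher and 1187 lower at an unadjusted p below 0.05. Without the library labelled RVM CFA 2, 410 genes were higher (2.79%) and 79 lower (0.538%) in the RVM, 3.33% in all. Among the shared rises the median change was 1.23 in the thalamus and 0.61 in the RVM, or 0.83 in the RVM without that library, and 700 of the 745 were larger in the thalamus. Among the shared falls the medians were nearer to each other, at -0.37 in the thalamus and -0.26 in the RVM. No gene was called (0.0%) for a difference of the CFA effect between regions by limma or limma-voom. By limma 1688 of 14671 genes were at an unadjusted p below 0.05 for that difference. Of the 745 shared rises 239 were, and of the 331 shared falls 19 were. Among the shared rises the smallest adjusted p of that difference was 0.216. The rises are thus not shown to be equal in both regions. All CFA libraries lay above all saline libraries in both regions for 470 of the rises, where 3.61% of all genes tested did so, and below them in both regions for 230 of the falls, where 3.26% did so.

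The thalamus and RVM libraries are separate, though the labels do not say whether they came from the same animals. The regions may thus not be independent, and genes called in the thalamus are looked up in the RVM as a description. The filter averaged RVM CFA libraries too, so some of these genes may have entered partly through them. Of the 555 thalamus rises, 545 (98.2%) had a positive change in the RVM, where 44.4% of all genes tested did. At an unadjusted p below 0.05, 373 of them (67.2%) were higher in the RVM, where 6.04% of all genes were. For 316 all RVM CFA libraries lay above all RVM saline libraries, where 7.44% of all genes did so. Of the 39 thalamus falls, 29 (74.4%) were negative in the RVM, where 55.5% of all genes were, and 7 (17.95%) were lower at an unadjusted p below 0.05, where 8.09% of all genes were. For 8 of the 39 the RVM groups did not overlap in that direction, where 12.2% of all genes did so.

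**Figure D1:**
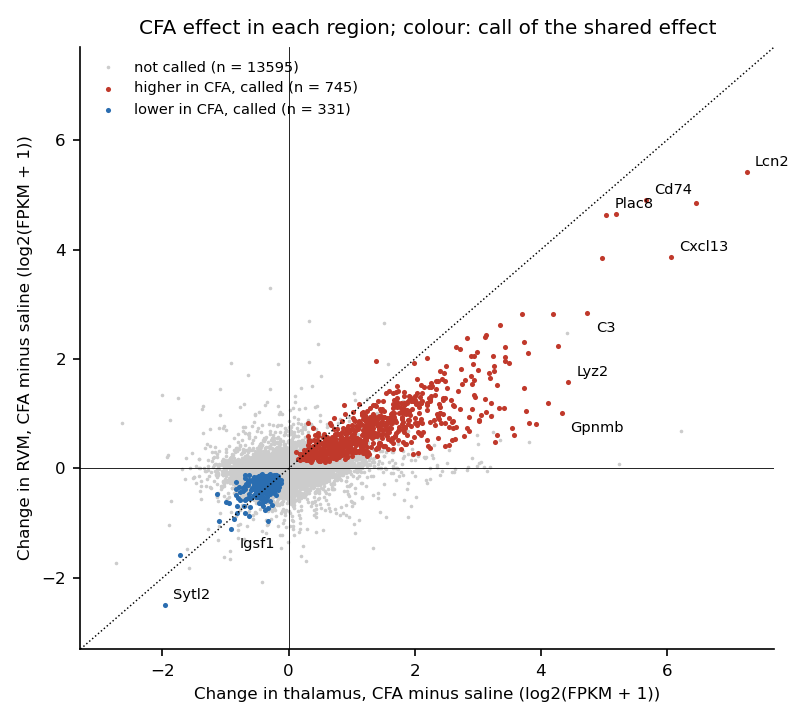
Change with CFA in the thalamus (horizontal axis) and in the RVM (vertical axis), both in log2(FPKM + 1), for the 14671 genes tested, 1 point per gene, coloured by the call of the shared effect; the dotted line marks equal change. Most of the 745 rises lie under the dotted line, since 700 were larger in the thalamus, and Lcn2 lies farthest out at 7.26 and 5.42.

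Beside the other RVM CFA libraries, the library labelled RVM CFA 2 took less part in the rises than in the falls. Against the mean of RVM saline, the 745 rises had a median change of 0.20 in it, beside 0.87 in RVM CFA 1 and 0.77 in RVM CFA 3. It lay above all 3 RVM saline libraries for 492 of the 745, RVM CFA 1 for 740 and RVM CFA 3 for 732. For the 331 falls its median change was -0.20 beside -0.31 and -0.30, and it lay below all RVM saline libraries for 288, RVM CFA 1 for 324 and RVM CFA 3 for 321. Over all genes tested, the RVM CFA libraries together lay above all RVM saline libraries for 7.44% and below them for 12.2%. The share of all genes for single libraries was not counted. The rises and falls were called with the library RVM CFA 2 in the fit. Without it 977 genes rose and 464 fell, among them 737 of the 745 and 291 of the 331. Without thalamus CFA 1 and 2, which leaves 1 thalamus CFA library that is assumed to vary like the others, 263 genes rose and 67 fell. Of the 102 called genes chosen for description, 46 lost their call in that fit, which has fewer libraries, and none changed direction.

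**Figure D2:**
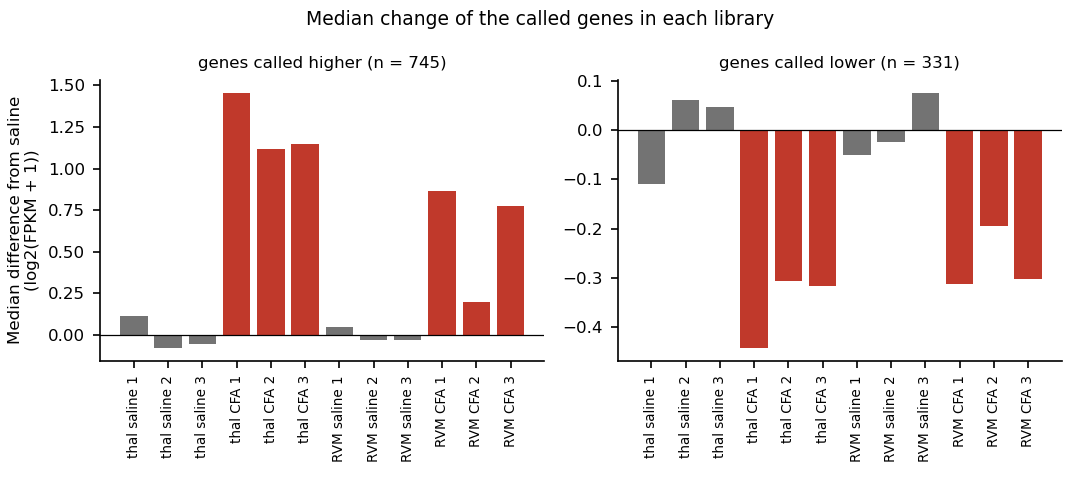
Median difference of the 745 genes called higher (left) and the 331 called lower (right) in each library, in log2(FPKM + 1), with CFA libraries (red) set against the mean of their region's saline libraries and saline libraries (grey) against the other saline libraries of the region. RVM CFA 2 stands at 0.20 in the left panel, beside 0.87 and 0.77 in the other RVM CFA libraries, and at -0.20 in the right panel.

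The largest shared rise was that of Lcn2 (ENSRNOG00000013973, chromosome 3, 11414186 to 11417546 in the deposited table, of unstated build), which encodes lipocalin 2, an iron-binding acute-phase protein that reactive astrocytes release. Lcn2 stood at 1.24, 0.491 and 1.63 FPKM in the thalamus saline libraries and 264.5, 319.9 and 372 in thalamus CFA. It stood at 1.39, 3.23 and 2.78 FPKM in the RVM saline libraries and 583, 12.8 and 369 in RVM CFA. Every CFA library lay above every saline library of its region, and RVM CFA 2 was the lowest CFA library by a wide margin. The shared log2 change was 6.34 ± 0.77 (SE, 12 libraries, limma adjusted p 0.0032), with 7.26 in the thalamus, 5.42 in the RVM and 7.11 in the RVM without RVM CFA 2. Others of the 12 largest rises outside the antigen presentation and complement genes were Cxcl13, a chemokine that attracts B cells, with 4.96 ± 0.47, Plac8, a gene of immune and epithelial cells, with 4.83 ± 0.46, Clec12a, an inhibitory receptor of myeloid cells, with 3.26 ± 0.43, and Fcgr3a, a receptor for immunoglobulin G, with 3.02 ± 0.43. Cxcl13, Plac8 and Clec12a averaged under 1 FPKM in saline libraries and entered the test through their CFA levels. In thalamus CFA 3 Lcn2 and Cxcl13 stood at 372 and 106 FPKM.

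Of the 12 largest rises, 5 were MHC class II genes. MHC class II molecules show peptides to helper T cells, and in the brain they are mainly a product of microglia and macrophages. Of 11 class II genes listed 8 were tested and 6 rose, but 2 of the 8 averaged 1 FPKM in saline libraries, so the others entered the test through their CFA levels and their count supports nothing. Cd74 (ENSRNOG00000018735, chromosome 18, 56071478 to 56080849), the invariant chain that chaperones class II molecules, stood at 9.25, 14.2 and 14 FPKM in the thalamus saline libraries and 595, 772 and 653 in thalamus CFA. In the RVM it stood at 18.2, 7.94 and 8.42 FPKM in the RVM saline libraries and 1108, 73.6 and 529.9 in RVM CFA. The groups did not overlap in either region, and the shared log2 change was 5.29 ± 0.53 (adjusted p 0.00157). RT1-Da, a class II chain, also passed the filter in saline libraries. It stood at 1.29, 2.09 and 2.99 FPKM in the thalamus saline libraries and 100.3, 125 and 107 in thalamus CFA and at 2.81, 1.23 and 1.21 FPKM in the RVM saline libraries and 254.5, 11.5 and 92.6 in RVM CFA, a shared change of 4.92 ± 0.56. RT1-Ba, RT1-Db1 and RT1-Bb, further class II chains, changed by 5.65 ± 0.71, 4.41 ± 0.59 and 3.51 ± 0.60, and reads shared among these close copies leave the split between members uncertain. By limma-voom on recovered reads the calls of Lcn2, RT1-Ba and RT1-Bb were lost, with changes on its scale of log2 reads of 7.12, 7.25 and 5.98 and adjusted p values of 0.0537, 0.0917 and 0.0998. RT1-Bb also lost its call without thalamus CFA 1 and 2, with a change of 3.19 (adjusted p 0.0537). Ciita, the coactivator that turns class II genes on, rose by 1.42 and was named after its value was seen, and the peptide loaders RT1-DMa and RT1-DMb were not called, at 0.78 and 0.83.

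MHC class I molecules show peptides from inside the cell to killer T cells, and the immunoproteasome cuts those peptides. Of 14 genes tested, all above the filter in saline libraries, 12 rose (85.7%, where 5.08% of all genes rose), with a median change of 1.26, or 1.61 in the thalamus and 0.91 in the RVM. RT1-A2, a class I heavy chain, stood at 4.99, 3.28 and 2.71 FPKM in the thalamus saline libraries and 75.4, 34.2 and 43.8 in thalamus CFA. It stood at 8.35, 6.82 and 4.88 FPKM in the RVM saline libraries and 63.2, 15.8 and 22.6 in RVM CFA. RT1-A2 changed by 2.70 ± 0.37, RT1-CE5 by 2.52 ± 0.38 and RT1-A1 by 2.19 ± 0.28, again within a family of close copies. Psmb9, a catalytic subunit of the immunoproteasome, changed by 2.03 ± 0.29. Psmb10, another such subunit, was called in the shared fit and in neither region alone. It stood at 19.4, 17.7 and 19.8 FPKM in the thalamus saline libraries and 38.8, 35.1 and 26.3 in thalamus CFA and at 22.1, 23.1 and 24.6 FPKM in the RVM saline libraries and 42.7, 27.2 and 42.2 in RVM CFA, with no overlap in either region and a change of 0.70 ± 0.12 (adjusted p 0.00573). The class I genes not called were RT1-T24-4 and Erap1, at 0.16 and 0.28.

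Promoter letters of these genes are shown because interferons act on class I genes through the interferon-stimulated response element, while class II promoters carry a CCAAT box. The sequences are from RefSeq (GRCr8, a window from 250 bases before to 50 after the start), matched by symbol for 9934 of the 14671 genes tested, and were chosen after the matches were known. The interferon-stimulated response element was searched as GAAA, any 2 bases and GAAA, on both strands, and 8 of the 12 called class I genes held it. No match lay before the start of RT1-A2, RT1-CE5, RT1-A1 or Psmb9, the class I genes with the largest changes given above. Only stretches with a match are printed. Capitals mark the match, and each stretch reads in the direction of its gene, so that a match on the other strand reads TTTC, any 2 bases and TTTC.
B2m: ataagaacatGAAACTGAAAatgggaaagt
Tap1: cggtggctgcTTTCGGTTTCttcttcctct
Tapbp: gagggaaaatGAAAGTGAAAggaaacagac
Psmb10: agtggggggtGAAAGCGAAAgtaggaa
Psme2: cctggagagtGAAAGCGAAAgctggggctg
RT1-N3: tgtgcttcagTTTCACTTTCcagtccctaa
They lie at chr3:129549170-129549199 (plus strand), chr20:4668645-4668674 (minus strand), chr20:4967878-4967907 (minus strand), chr19:50743293-50743319 (minus strand), chr15:33052785-33052814 (minus strand) and chr20:2666272-2666301 (plus strand). The matches begin 150, 121, 20, 17, 53 and 207 bases before the start. B2m encodes the light chain of class I molecules, Tap1 a subunit of the peptide transporter, Tapbp the loading factor tapasin and Psme2 a proteasome activator, and these 4 rose by 1.35, 1.89, 0.82 and 0.79. RT1-N3, a nonclassical class I gene, rose by 0.94.

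All 5 called class II genes with a promoter in the table held CCAAT, searched on both strands, which 37.4% of the tested genes' promoters hold. CCAAT was not particular to class II: 8 of the 12 called class I genes and 4 of 7 called cholesterol synthesis genes with a promoter held it too. A match on the other strand reads ATTGG.
RT1-Ba: gaattttctgATTGGtctgtcgggt
RT1-Da: catttttctgATTGGctagaactca
RT1-Bb: tccagtgctgATTGGctcctcactt
RT1-Db1: ctggccttacCCAATccagtggcaa
These stretches lie at chr20:4577004-4577028 (plus strand), chr20:4515356-4515380 (plus strand), chr20:4604165-4604189 (minus strand) and chr20:4560203-4560227 (minus strand). Over all shared rises with a promoter, 59 of 538 (11.0%) held the interferon-stimulated response element, beside 2.81% of the tested genes' promoters, 3.77% of all 27457 promoters and 2.16% of 231 promoters of shared falls. For the kappaB site the shares were 16.2% of rises, 12.6% of falls, 10.2% of tested genes and 7.6% of all promoters. For the STAT site, TTCCNGGAA, they were 3.16% of rises, 0.433% of falls, 1.16% of tested genes and 1.23% of all, and for CCAAT 33.6% of rises, 39.8% of falls and 37.7% of all. Matches of different motifs overlapped in 3 of the 538 promoters. These are counts of letters in a window, not of bound sites.

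Complement genes, whose products tag cells and debris for uptake, were nearly all raised. Of 16 tested, 14 rose, where 5.08% of all genes rose, and none fell, and 14 of the 16 averaged at least 1 FPKM in saline libraries. The median change was 1.73, with 2.53 in the thalamus and 1.07 in the RVM. C3 (ENSRNOG00000046834, chromosome 9, 9721105 to 9747167), the component on which the complement pathways converge, stood at 5.98, 5.09 and 4.04 FPKM in the thalamus saline libraries and 149.8, 196 and 136 in thalamus CFA. It stood at 10.9, 5.06 and 12.8 FPKM in the RVM saline libraries and 139, 27 and 93 in RVM CFA, without overlap in either region, and changed by 3.79 ± 0.44 (adjusted p 0.00302). C1qb, a chain of the C1q recognition complex made by microglia, stood at 32.6, 32 and 33.1 FPKM in the thalamus saline libraries and 287, 231 and 199 in thalamus CFA. In the RVM it stood at 32.5, 29.4 and 24.9 FPKM in the RVM saline libraries and 235.5, 65.2 and 238 in RVM CFA. C1qb changed by 2.60 ± 0.28, C1qc by 2.79 ± 0.34 and Serping1, the inhibitor of the C1 proteases, by 3.25 ± 0.48. The 2 members not called were the inhibitors Cd55 and Cd59, at 0.10 and 0.11, which were named after their values were seen. Without thalamus CFA 1 and 2, 9 of the 16 rose.

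Genes of microglia rose, both markers of the resting state and genes of activation. Of 11 homeostatic microglia markers, all above the filter in saline libraries, 6 rose (where 5.08% of all genes rose), with a median of 0.60. Csf1r, the receptor on which microglia depend for survival, stood at 29.7, 26.9 and 25.3 FPKM in the thalamus saline libraries and 98.6, 84.6 and 80.9 in thalamus CFA. It stood at 30.8, 27.8 and 28.1 FPKM in the RVM saline libraries and 92.8, 39.3 and 80.3 in RVM CFA, and changed by 1.41 ± 0.18 (adjusted p 0.0032). Cx3cr1, the fractalkine receptor, changed by 1.06 ± 0.17, and the purinergic receptors P2ry13 and P2ry12 by 0.98 ± 0.17 and 0.97 ± 0.16. Of 23 activation and phagocytosis genes, of which 20 averaged at least 1 FPKM in saline libraries, 19 rose (where 5.08% of all genes rose), with a median of 1.82, or 2.37 in the thalamus and 1.04 in the RVM. Cd68, a lysosomal protein of phagocytes, stood at 1.13, 0.854 and 0.925 FPKM in the thalamus saline libraries and 34.4, 19.9 and 26.9 in thalamus CFA and at 0.995, 0.52 and 0.778 FPKM in the RVM saline libraries and 14, 1.67 and 9.82 in RVM CFA, a change of 2.96 ± 0.42. Aif1, which encodes the microglial protein Iba1, changed by 1.82 ± 0.29, and the fungal sugar receptor Clec7a by 2.65 ± 0.42. Cd68 and Clec7a averaged under 1 FPKM in saline libraries and entered the test through their CFA levels. Gpnmb, a glycoprotein of lipid-laden phagocytes, changed by 4.33 in the thalamus and 1.01 in the RVM. Its RVM groups overlapped, the adjusted p of the difference between regions was 0.237, and that difference was not called. The calls of P2ry13 and Gpnmb were lost without thalamus CFA 1 and 2, where they changed by 0.81 (adjusted p 0.0512) and 2.17 (adjusted p 0.0985).

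**Figure D3:**
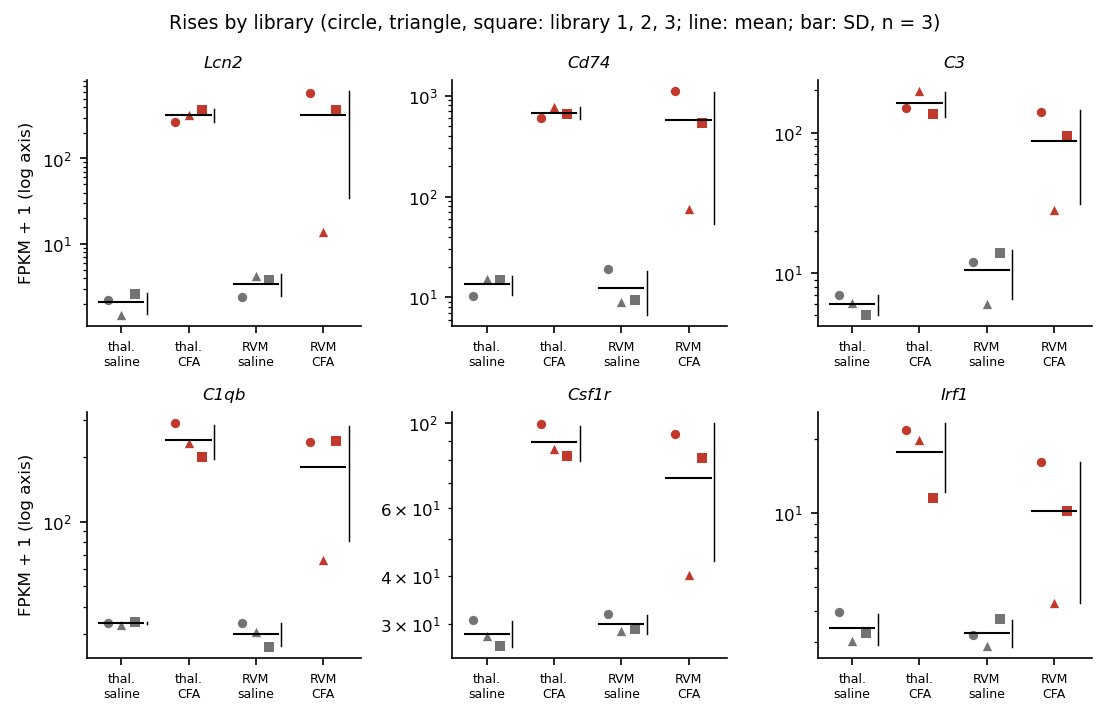
FPKM + 1 on a log axis in each library for 6 genes that rose, with grey for saline and red for CFA; circle, triangle and square are libraries 1, 2 and 3 of a group, the line is the mean and the bar the SD of 3 libraries, cut at 1. The triangle in RVM CFA, the library labelled RVM CFA 2, is the lowest CFA point in each panel and lies above the RVM saline points in each.

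Innate sensing, cytokine and chemokine genes gave many rises, where 5.08% of all genes rose. Of 20 Toll-like receptor and NF-kappaB genes 15 rose, with a median of 0.95, though 14 of the 20 averaged 1 FPKM in saline libraries. Tlr2, a receptor for bacterial lipoproteins, stood at 2.27, 1.71 and 1.77 FPKM in the thalamus saline libraries and 12, 10.5 and 10.1 in thalamus CFA and at 2.79, 2.29 and 2.19 FPKM in the RVM saline libraries and 10.6, 3.44 and 8.15 in RVM CFA. Tlr2 changed by 1.61 ± 0.22, its partner Tlr1 by 1.495 ± 0.20, the lipopolysaccharide coreceptor Cd14 by 1.95 ± 0.35 and Bcl3, a nuclear regulator of NF-kappaB, by 1.51 ± 0.27. Tlr1, Cd14 and Bcl3 averaged under 1 FPKM in saline libraries and entered the test through their CFA levels. Of 22 cytokine and receptor genes 13 rose, with a median of 0.68, and 17 of the 22 averaged 1 FPKM in saline libraries. Il1b, Il1rn, Csf2rb and Tnfrsf1b were among those that entered the test through their CFA levels. Il1b, the cytokine interleukin 1 beta, stood at 0.252, 0.179 and 0.0433 FPKM in the thalamus saline libraries and 11.2, 6.15 and 12.9 in thalamus CFA and at 0.133, 0 and 0.692 FPKM in the RVM saline libraries and 3.14, 0.975 and 1.81 in RVM CFA, a change of 2.20 ± 0.37. The shared receptor chain Csf2rb changed by 2.73 ± 0.34, the receptor Tnfrsf1b by 1.27 ± 0.19 and the antagonist Il1rn by 2.14 ± 0.46, the last with overlapping groups in the RVM. Of 18 chemokine genes 9 rose, with a median of 1.16, and 7 of the 18 averaged 1 FPKM in saline libraries. Ccl2, which attracts monocytes, changed by 3.81 in the thalamus and 0.82 in the RVM, Cxcl10 by 3.03 and 0.87, and Cxcl16 by 3.05 and 0.98, with overlap in the RVM for each. Ccl2 and Cxcl10 also averaged under 1 FPKM in saline libraries. Without thalamus CFA 1 and 2 the counts were 6 of 20, 5 of 22 and 1 of 18, with 1 cytokine gene lower. Without thalamus saline 3, 8 of the 22 cytokine genes rose. Calls lost when thalamus CFA 1 and 2 were left out were those of Cd14, at 1.52 (adjusted p 0.0548), Il1rn, at 1.71 (adjusted p 0.109), Ccl2, at 1.48 (adjusted p 0.0858), Cxcl10, at 1.35 (adjusted p 0.106), and Cxcl16, at 1.51 (adjusted p 0.0549).

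Interferon response genes had positive changes in all 32 genes tested, where 38.2% of all genes did. Of the 32, 18 rose, where 5.08% of all genes rose. The median of the 32 was 1.05. Irf8, a transcription factor of myeloid cells, stood at 3.12, 1.86 and 2.75 FPKM in the thalamus saline libraries and 33.1, 26.4 and 20.3 in thalamus CFA and at 3.1, 3.02 and 2.62 FPKM in the RVM saline libraries and 30.3, 5.53 and 19.9 in RVM CFA, a change of 2.50 ± 0.33. Irf1, a factor induced by interferon gamma, stood at 2.95, 2.01 and 2.24 FPKM in the thalamus saline libraries and 20.8, 18.8 and 10.5 in thalamus CFA and at 2.2, 1.89 and 2.71 FPKM in the RVM saline libraries and 15.1, 3.3 and 9.24 in RVM CFA, a change of 1.90 ± 0.30. Gbp2, a guanylate-binding protein, changed by 2.42 ± 0.44 and the antiviral gene Mx1 by 1.83 ± 0.41. The count of rises depended on single libraries. It was 29 of 32 without RVM CFA 2, 8 without thalamus saline 3, 9 without RVM CFA 1, 10 without thalamus saline 2, 11 without RVM CFA 3 and 3 without thalamus CFA 1 and 2, where Gbp2 changed by 1.86 (adjusted p 0.0533) and Mx1 by 1.61 (adjusted p 0.121).

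Of 20 reactive astrocyte and STAT3 genes tested 13 rose, where 5.08% of all genes rose. The median of the 20 was 1.46, or 2.14 in the thalamus and 0.51 in the RVM. No member was called for the difference between regions. Since 14 of the 20 averaged 1 FPKM in saline libraries, the others entered the test through their CFA levels, and the count and medians are a description. Beside Lcn2, Cp, the copper carrier ceruloplasmin, stood at 4.1, 2.04 and 1.96 FPKM in the thalamus saline libraries and 37.8, 50 and 32 in thalamus CFA and at 4.48, 4.59 and 4.28 FPKM in the RVM saline libraries and 34, 7.94 and 27.3 in RVM CFA, a change of 2.71 ± 0.37. Timp1, an inhibitor of metalloproteinases, changed by 4.12 and 1.21 in the 2 regions, and Socs3, a feedback inhibitor of STAT3 signalling, by 3.34 and 1.100, both with overlap in the RVM. Gfap, the intermediate filament of astrocytes, was not called. It stood at 155, 79.3 and 137 FPKM in the thalamus saline libraries and 936, 455 and 364 in thalamus CFA and at 673.5, 679 and 773 FPKM in the RVM saline libraries and 1004, 601.5 and 884 in RVM CFA, with a shared change of 1.18 ± 0.37 (adjusted p 0.0806). Without thalamus CFA 1 and 2, 3 of the 20 rose, and Timp1 changed by 2.24 (adjusted p 0.0939) and Socs3 by 1.76 (adjusted p 0.0627). None of 18 general astrocyte genes was called, with a median of -0.10, and the smallest p values among them included those of Aldh1l1 (-0.40 ± 0.11) and Sox9 (0.44 ± 0.16).

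Genes of cholesterol synthesis were lower with CFA, with medians near each other in the regions. Of 20 tested 7 fell (where 2.26% of all genes fell) and 19 had a negative change (where 61.8% of all genes did), with a median of -0.29, or -0.29 in the thalamus and -0.31 in the RVM. Msmo1 (ENSRNOG00000032297, chromosome 16, 26859397 to 26875973), a sterol demethylase of the pathway, stood at 79.6, 86.5 and 89.3 FPKM in the thalamus saline libraries and 59.9, 60.6 and 65.2 in thalamus CFA. It stood at 184, 192 and 205 FPKM in the RVM saline libraries and 133, 159 and 136 in RVM CFA. The groups did not overlap in either region, and RVM CFA 2 was the nearest of its group to saline. Msmo1 changed by -0.45 ± 0.06 (adjusted p 0.0032). Hmgcs1, the enzyme that makes HMG-CoA, stood at 119, 139 and 173 FPKM in the thalamus saline libraries and 94.2, 98.9 and 113.5 in thalamus CFA and at 371, 460.0 and 520.4 FPKM in the RVM saline libraries and 263, 328 and 270.3 in RVM CFA, a change of -0.56 ± 0.11. Further falls, named after their values were seen, were the enzymes Cyp51 (-0.36), Dhcr7 (-0.33) and Sc5d (-0.29) and the transcription factor Srebf2 (-0.23), which drives the pathway. The member that rose was Abca1, which exports cholesterol from cells, at 0.57 ± 0.16 (adjusted p 0.0473), with 0.93 in the thalamus and 0.21 in the RVM.

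The summed FPKM of the cholesterol list was 728 to 966 in thalamus saline, 636 to 776 in thalamus CFA, 1754 to 2141 in RVM saline and 1428 to 1581 in RVM CFA, so that RVM CFA 2, at 1581, lay with its group. With each library rescaled to the same total, or with quantile normalization, 3 of the 20 fell. Counts of falls were 3 to 6 in 10 of the fits that left out 1 library. Without thalamus saline 1 they were 10, and without thalamus CFA 1 and 2 they were 3. In that last fit Hmgcs1 changed by -0.53 (adjusted p 0.0783) and Abca1 by 0.46 (adjusted p 0.1998). The letters ATCAC, any base and CCAC, a form of the sterol regulatory element to which SREBP factors bind, were searched for after these results were known. They were in none of the 7 promoters of called members that the table holds, and in 0.251% of all promoters.

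Myelin genes, which oligodendrocytes express, leaned downward with few calls. Of 20 tested 3 fell, where 2.26% of all genes fell, and 19 had a negative change, where 61.8% of all genes did, with a median of -0.31, or -0.23 in the thalamus and -0.44 in the RVM. Mog, a surface protein of myelin, stood at 104, 88.4 and 122 FPKM in the thalamus saline libraries and 90.9, 83.5 and 89.4 in thalamus CFA. It stood at 321, 329 and 356 FPKM in the RVM saline libraries and 239, 268 and 234 in RVM CFA. Its thalamus groups overlapped and its RVM groups did not, and it changed by -0.34 ± 0.08 (adjusted p 0.0257). The gap junction gene Gjc3 changed by -0.43 ± 0.11. The myelin sum was 25017 to 28350 FPKM in RVM saline and 18538 to 19571 in RVM CFA, RVM CFA 2 included, and 5550 to 8566 and 5343 to 6283 FPKM in the thalamus groups. No member fell with libraries rescaled to the same total, with quantile normalization or without thalamus CFA 1 and 2, and 8 fell without thalamus saline 2. None also fell in the fits without thalamus saline 3, thalamus CFA 2, RVM saline 2, RVM saline 3 or RVM CFA 1, and 1 did without thalamus saline 1, RVM saline 1 or RVM CFA 3.

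**Figure D4:**
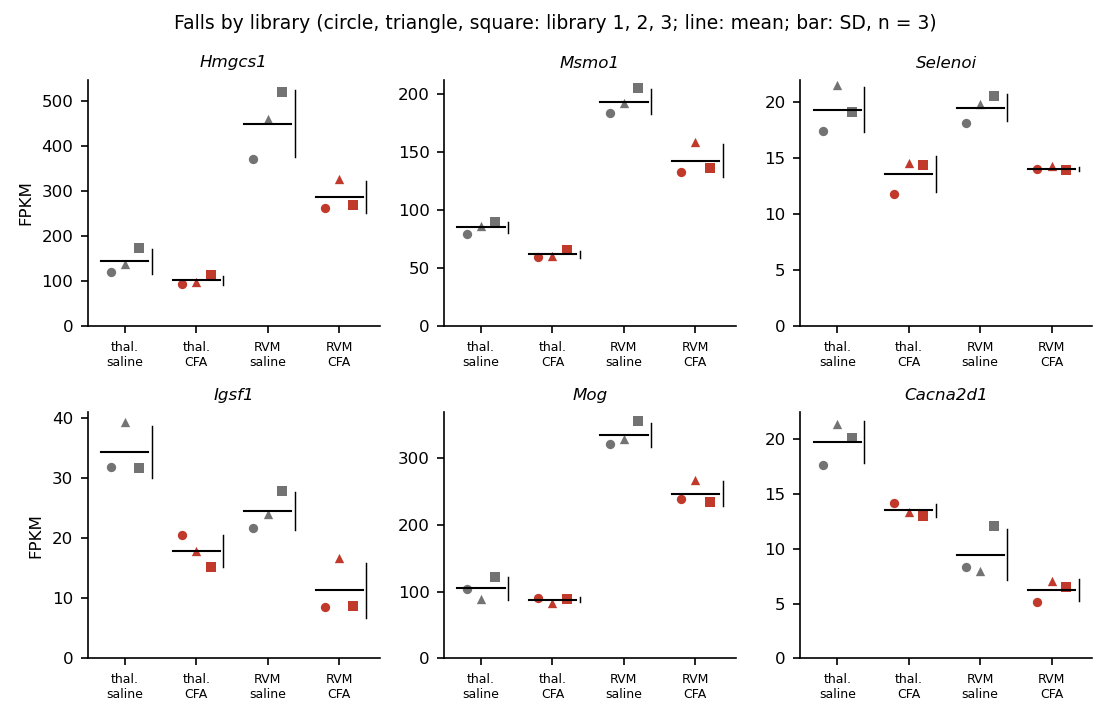
FPKM on a linear axis from 0 in each library for 6 genes that fell, with grey for saline and red for CFA; circle, triangle and square are libraries 1, 2 and 3 of a group, the line is the mean and the bar the SD of 3 libraries. The CFA points lie under the saline points in both regions for Hmgcs1, Msmo1, Selenoi, Igsf1 and Cacna2d1, while the thalamus points of Mog overlap.

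Among the 12 largest falls, those of Igsf1, Gstt3 and Arpp21 were kept in every alternative fit. Igsf1 (ENSRNOG00000007600, chromosome X, 136792643 to 136807885), a membrane glycoprotein of the immunoglobulin superfamily, stood at 31.9, 39.3 and 31.6 FPKM in the thalamus saline libraries and 20.4, 17.8 and 15.2 in thalamus CFA and at 21.6, 23.9 and 27.9 FPKM in the RVM saline libraries and 8.57, 16.6 and 8.77 in RVM CFA, a change of -1.005 ± 0.15 (adjusted p 0.00356). Gstt3, a glutathione transferase, stood at 39, 24.2 and 36.9 FPKM in the thalamus saline libraries and 19.2, 19.4 and 20.8 in thalamus CFA and at 59.2, 58.4 and 45.9 FPKM in the RVM saline libraries and 29.8, 37 and 25.9 in RVM CFA, a change of -0.75 ± 0.12. Arpp21, a neuronal phosphoprotein regulated by cyclic AMP, changed by -0.66 ± 0.11. The groups of these 3 genes did not overlap in either region. Crh, the stress peptide corticotropin-releasing hormone, stood at 1.22, 2.4 and 2.98 FPKM in the thalamus saline libraries and 1.06, 0.59 and 0.302 in thalamus CFA and at 91.4, 58.8 and 94.8 FPKM in the RVM saline libraries and 46.9, 54.9 and 52 in RVM CFA, a change of -0.79 ± 0.17 that was lost in 2 of the alternatives. The calcium-binding protein gene Calb1 changed by -0.82 ± 0.19 and the prion-like gene Sprn by -0.67 ± 0.13, and Rasgef1b by -0.70 ± 0.16. When thalamus CFA 1 and 2 were left out, Crh changed by -0.84 (adjusted p 0.0691), Calb1 by -0.79 (adjusted p 0.0644), Sprn by -0.67 (adjusted p 0.0606) and Rasgef1b by -0.60 (adjusted p 0.104), none of them called. The 2 largest falls had values that scattered within groups. Sytl2, a synaptotagmin-like gene, stood at 5.87, 8.82 and 22.9 FPKM in the thalamus saline libraries and 0.465, 10.2 and 0.639 in thalamus CFA and at 23.6, 10.1 and 18 FPKM in the RVM saline libraries and 0.294, 2.69 and 4.94 in RVM CFA, and lost its call in 7 of the 12 fits that left out 1 library. Rbm39, a splicing factor, stood at 6.36, 16.5 and 15 FPKM in the thalamus saline libraries and 3.19, 1.89 and 3.72 in thalamus CFA and at 10.3, 15.3 and 19.6 FPKM in the RVM saline libraries and 1.93, 15.3 and 1.93 in RVM CFA, and lost its call in 9 of the 12. The calls of Stum and Cnih3 were lost in 7 and 10 of the 12. Those of Rbm39, Stum and Cnih3 were also lost without thalamus CFA 1 and 2.

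Of the calls, 249 rises and 317 falls passed in the shared fit and in neither region's own fit, where 6 libraries stand in place of 12. The falls with the smallest p among them were small and even. Selenoi (ENSRNOG00000059295, chromosome 6, 27473748 to 27512287), an enzyme of phospholipid synthesis, stood at 17.4, 21.5 and 19.1 FPKM in the thalamus saline libraries and 11.8, 14.6 and 14.4 in thalamus CFA. It stood at 18.1, 19.8 and 20.5 FPKM in the RVM saline libraries and 14, 14.2 and 13.9 in RVM CFA, and all 6 CFA libraries lay below the saline libraries of their region. Selenoi changed by -0.46 ± 0.07 (adjusted p 0.00342), with -0.48 in the thalamus and -0.44 in the RVM. Secisbp2l, a paralogue of a factor for selenoprotein translation, changed by -0.41 ± 0.06, the anion transporter Slco3a1 by -0.38 ± 0.06, Mblac2 by -0.34 ± 0.05, the septin gene Sept8 by -0.35 ± 0.06 and Chn2, a Rac GTPase-activating protein, by -0.49 ± 0.08. The matching rises included Tent5a, Hhex, Sh2b3, Psmb10 and Rps20. Hhex, a homeobox factor, changed by 0.86 ± 0.14, Tent5a, a poly(A) polymerase, by 1.16 ± 0.19 and Sh2b3, an adaptor that restrains cytokine signalling, by 0.43 ± 0.07. These 12 calls were kept in every alternative fit, and their groups did not overlap in either region.

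Of 42 ribosomal protein genes tested 24 rose (57.1%, where 5.08% of all genes rose) and none fell, with a median of 0.25, or 0.32 in the thalamus and 0.21 in the RVM. Rps20, a protein of the small subunit, stood at 290.4, 252 and 257 FPKM in the thalamus saline libraries and 386, 353.5 and 357 in thalamus CFA and at 392.1, 411 and 365 FPKM in the RVM saline libraries and 501, 439.7 and 474 in RVM CFA. RVM CFA 2 was again the nearest of its group to saline, without overlap, and Rps20 changed by 0.37 ± 0.06 (adjusted p 0.0059). Rplp0, of the ribosomal stalk, changed by 0.53 ± 0.10, Rps27 by 0.42 ± 0.09 and Rps4x by 0.42 ± 0.08. Rpl30 had the largest called change, 0.82 ± 0.21, with overlapping groups, and lost its call in 10 of the 12 fits that left out 1 library. Many processed copies of these genes exist in the genome, and how reads shared with them were counted is unstated. The count of rises was 7 without thalamus CFA 1 and 2, where Rps27 changed by 0.40 (adjusted p 0.0938), Rps4x by 0.38 (adjusted p 0.0537) and Rpl30 by 0.90 (adjusted p 0.0863), and 11 without thalamus saline 3 or without RVM CFA 1. It was 15 without RVM saline 3, 13 without thalamus saline 2, and 14 without thalamus CFA 3 or without RVM CFA 3.

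Stress and metal-binding genes gave a few rises, where 5.08% of all genes rose. Of 16 metallothionein and glucocorticoid-responsive genes 3 rose: Mt2A by 1.97 ± 0.38, Mt1 by 1.96 ± 0.36 and the transcription factor Cebpd by 1.65 ± 0.31. Mt2A, a zinc-binding metallothionein, stood at 85.8, 27.7 and 41.4 FPKM in the thalamus saline libraries and 337, 186 and 215 in thalamus CFA and at 113, 107.5 and 62.5 FPKM in the RVM saline libraries and 530.0, 119 and 337 in RVM CFA, and its list's median was -0.14. Of 19 heat shock and unfolded protein genes 3 rose: the small heat shock protein gene Hspb1 by 1.66 ± 0.34, the haem oxygenase gene Hmox1 by 1.15 ± 0.28 and the stress factor Atf3 by 0.98 ± 0.25. The calls of Hmox1 and Atf3 were lost in 8 and 10 of the 12 fits that left out 1 library, and Atf3 averaged under 1 FPKM in saline libraries. Leaving out thalamus CFA 1 and 2 ended the calls of Mt2A, at 1.79 (adjusted p 0.0734), Cebpd, at 1.34 (adjusted p 0.0648), Hspb1, at 1.24 (adjusted p 0.0606), Hmox1, at 1.04 (adjusted p 0.125), and Atf3, at 0.74 (adjusted p 0.202). None of 27 nuclear and 13 mitochondrially encoded respiratory genes was called, and the median of the latter was -0.56 in the thalamus and 0.04 in the RVM.

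Neuronal genes shared few changes. Of 15 pan-neuronal genes 1 fell, Syt1, the calcium sensor of transmitter release, which stood at 227, 323 and 281 FPKM in the thalamus saline libraries and 139, 197 and 176 in thalamus CFA and at 76.6, 68 and 80 FPKM in the RVM saline libraries and 50.9, 58.9 and 62.4 in RVM CFA, a change of -0.54 ± 0.11. Of 37 voltage-gated and related channel genes 3 fell and 1 rose, where 2.26% of all genes fell and 5.08% rose. Cacna2d1, the calcium channel subunit to which gabapentin binds, stood at 17.6, 21.4 and 20.1 FPKM in the thalamus saline libraries and 14.2, 13.3 and 13 in thalamus CFA and at 8.34, 7.93 and 12.1 FPKM in the RVM saline libraries and 5.1, 7.03 and 6.51 in RVM CFA. The groups did not overlap in either region, and Cacna2d1 changed by -0.52 ± 0.10 (adjusted p 0.0116). The sodium channel genes Scn2a and Scn2b changed by -0.43 ± 0.12 and -0.28 ± 0.07, and lost their calls in 10 and 7 of the 12 fits that left out 1 library. Trpm2, a calcium channel that microglia also express, rose by 1.09 ± 0.19. In the fit without thalamus CFA 1 and 2 none of these was called, with changes of -0.46 (adjusted p 0.0625) for Syt1, -0.54 (adjusted p 0.0619) for Cacna2d1, -0.37 (adjusted p 0.142) for Scn2a, -0.27 (adjusted p 0.0515) for Scn2b and 1.01 (adjusted p 0.0577) for Trpm2. Medians of the neuronal lists were -0.24 for pan-neuronal genes, -0.26 for 25 glutamate receptor genes, of which none was called, and -0.23 for 23 GABA and glycine genes, of which Gabrg1 fell by 0.40 ± 0.10. In the thalamus these medians were -0.45, -0.41 and -0.36, and in the RVM -0.02, -0.12 and -0.08. The 15 thalamic neuron markers had medians of -0.84 in the thalamus and -0.04 in the RVM, and none was called. Their part in the falls was not tested.

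Genes of pain signalling had few calls, where 7.33% of all genes tested were called. Of 28 pain peptides and receptors Crh fell and P2ry12 rose, both described above. Oprm1, the mu opioid receptor, stood at 2.52, 8.01 and 6.5 FPKM in the thalamus saline libraries and 1.15, 3.64 and 2.61 in thalamus CFA and at 0.559, 0.46 and 0.524 FPKM in the RVM saline libraries and 0.419, 0.606 and 0.374 in RVM CFA, a shared change of -0.48 ± 0.26 (adjusted p 0.272). The opioid peptide gene Penk changed by -0.21 ± 0.30 and Pdyn by -0.08 ± 0.25, Tac1, the precursor of substance P, by 0.17 ± 0.22, Calca, which encodes CGRP, by -0.50 ± 0.18 and Bdnf by -0.33 ± 0.15, none of them called. Tph2, the enzyme of neuronal serotonin synthesis, stood at 57.5, 45.3 and 66.2 FPKM in the RVM saline libraries and 36.3, 40.4 and 51.3 in RVM CFA, a change of -0.39 in the RVM that was not called. Of 22 monoamine genes Ddc, the decarboxylase that makes dopamine and serotonin, fell by 0.39 ± 0.10, a call lost in 8 of the 12 fits that left out 1 library and without thalamus CFA 1 and 2. None of 18 immediate early genes was called: Fos changed by -0.40 ± 0.26 and Dusp1 by -0.79 ± 0.25.

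Markers of other cell types are given here, beside 5.08% of all genes tested that rose and 2.26% that fell. The part of these markers in the results was not tested. None of 11 choroid plexus and ependymal genes was called in the shared fit, with medians of 2.91 in the thalamus and 0.10 in the RVM. Of 9 blood and granulocyte genes, 6 of which averaged 1 FPKM in saline libraries, 4 rose. The other 5, haemoglobin genes and Alas2 of haem synthesis, had negative changes and were not called, and the list's median was -0.09. The list's sum was 2313 FPKM in RVM CFA 2, above the 1012 and 1047 in the other RVM CFA libraries and the 1115 to 1477 in RVM saline. Thalamus saline libraries summed to 509 to 991 FPKM and thalamus CFA libraries to 819.8 to 1755 FPKM. Lyz2, the lysozyme of myeloid cells including microglia, stood at 36.8, 21.8 and 21.1 FPKM in the thalamus saline libraries and 584, 620.5 and 534 in thalamus CFA and at 44.5, 32 and 31.1 FPKM in the RVM saline libraries and 143, 50.4 and 170.1 in RVM CFA, a change of 3.004 ± 0.50. S100a9 and S100a8, which neutrophils carry in abundance, changed by 2.46 ± 0.37 and 1.72 ± 0.36, and Csf3r, the receptor for granulocyte colony-stimulating factor, by 1.30 ± 0.24. S100a9, S100a8 and Csf3r averaged under 1 FPKM in saline libraries and entered the test through their CFA levels. S100a9 stood at 0.286, 0.354 and 0.343 FPKM in the thalamus saline libraries and 18.7, 4.46 and 14.9 in thalamus CFA and at 0, 0.136 and 0.571 FPKM in the RVM saline libraries and 2.1, 2.27 and 5.68 in RVM CFA, so that RVM CFA 2 was here within the range of its group. Of 4 lymphocyte genes tested, out of 16 found, Ighm and Cd8a rose, by 1.36 ± 0.28 and 1.31 ± 0.33. Both averaged under 1 FPKM in saline libraries and entered the test through their CFA levels. Calls of S100a8, at 1.56 (adjusted p 0.0514), Csf3r, at 1.09 (adjusted p 0.0676), Ighm, at 1.05 (adjusted p 0.0942), and Cd8a, at 0.91 (adjusted p 0.129), were lost without thalamus CFA 1 and 2. Of 12 endothelial genes Icam1, an adhesion molecule for leukocytes, rose by 1.59 ± 0.26. Of 16 mural and meningeal genes 14 had a positive change, where 38.2% of all genes did, and none rose. The median of the 16 was 0.41, or 1.003 in the thalamus and -0.06 in the RVM. Their sum was 369 to 502 FPKM in thalamus saline, 1790 in thalamus CFA 1, beside 532 and 521 in the other thalamus CFA libraries, 778 to 931 in RVM CFA and 1006 to 1041 in RVM saline. Rgs5, a pericyte marker, was the member that fell, at -0.27 ± 0.06, a call lost without thalamus CFA 1 and 2. In thalamus CFA 3 the complement sum was 1164 FPKM and the class II sum 937 FPKM, against at most 275 and 18.3 FPKM in thalamus saline.

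**Figure D5:**
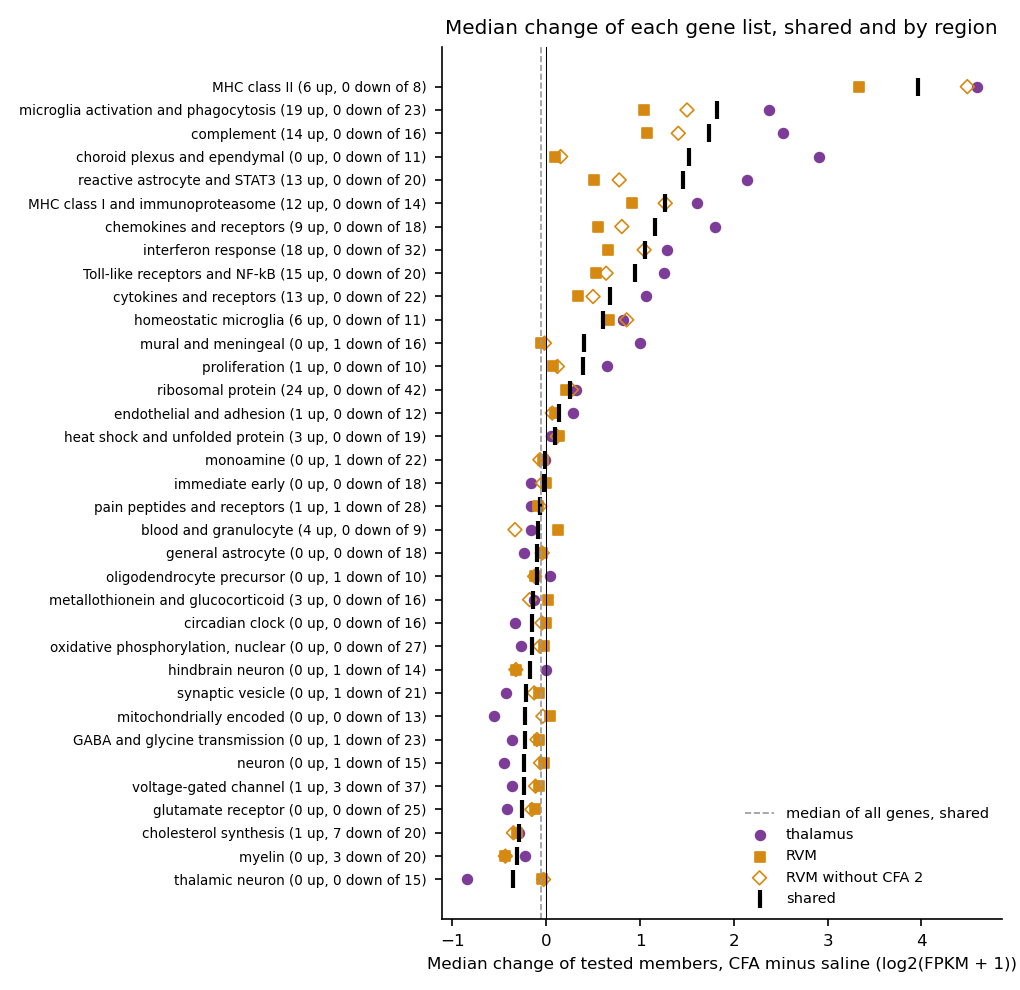
Median change of the tested members of each gene list with at least 5 tested, in log2(FPKM + 1), for the shared effect (black bar), the thalamus (purple circle), the RVM (filled orange square) and the RVM without RVM CFA 2 (open diamond); the dashed line is the median of all genes, -0.05, and brackets count members called up and down. The class II list, most of whose tested members entered through their CFA levels, lies farthest right, the microglial activation and complement lists stand at 1.82 and 1.73, choroid plexus genes in the thalamus (2.91, beside 0.10 in the RVM), and cholesterol synthesis and myelin genes left of 0 in both.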

How the data were processed

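Total RNA from 12 samples was sequenced from TruSeq libraries, per the labels' protocols. The authors deposited FPKM values per gene in a single table. Aligner, counting tool and build: not given in the sources used here. FPKM times gene length gave whole reads for 100% of the values checked, those of up to 1000 reads (tolerance 0.01). The recovered reads were used for depth and for limma-voom only.

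The log2(FPKM + 1) values of 12 libraries were fitted with terms for region and treatment, by limma 3.58.1 (R 4.3.3, empirical Bayes with trend). The same genes were fitted in each region and for the interaction. In simulated data, 98% of 50 genes raised by 1 on the log2 scale were recovered, among 14671 genes, with 13 false calls. The simulation used 1 setting of spread for all genes, equal changes in both regions and no library that stood apart. The real libraries differ in this, so the recovery does not carry over to them.

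Of 759 listed symbols in 37 lists, 739 matched. The members and lists were chosen with earlier results of these data known. Named genes were the 12 largest changes per direction, the 6 smallest p per direction among genes called in neither region, up to 4 called members per list (otherwise the 3 smallest p), and 13 genes named outright, passing over bare identifiers. A few genes that the rule chose are not reported here. Genes called in both separate regions or in the interaction would have been named, but there were none. Alternatives were another pseudocount (0.1), other filters (none, 5 FPKM, or saline libraries only), scalings, robust and weighted fits, limma-voom, replicate blocks, and leaving libraries out.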

Additional observations from a re-analysis of the deposited data

How the results depend on the processing

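The 745 shared rises became 391 with a filter at 5 FPKM and 263 without thalamus CFA 1 and 2, and 468 to 977 when 1 library was left out. The 331 shared falls became 220 with no filter, 79 with libraries rescaled to the same total, 208 with quantile normalization, 621 with library quality weights and 67 without thalamus CFA 1 and 2, and 102 to 464 when 1 library was left out. Falls were 41.8% of calls with the filter at 5 FPKM, 41.3% with quality weights and 20.3% without thalamus CFA 1 and 2. Counts by limma-voom were 686 and 347, and without thalamus saline 1 and CFA 1 they were 579 and 377. Thalamus rises (555) became 255 with the filter at 5 FPKM, and 281 to 429 with 1 library left out; falls (39) became 20 with that filter, 16 with the same total, and 9 to 69 with 1 library left out. The RVM counts of 0 became 1 higher and 1 lower with a pseudocount of 0.1, 1 lower with no filter or with the same total, and 0 to 410 higher and 0 to 79 lower with 1 library left out. Counts of 0 for the difference between regions became 3 higher and 8 lower in the RVM with no filter, and 0 to 8 and 0 to 13 with 1 library left out. In these fits the cause was not tested.

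Whether same-numbered libraries are pairs is not given by the labels. Deviations of same-numbered libraries correlated at 0.364, 0.063 and 0.267 in the thalamus and at -0.028, -0.005 and -0.010 in the RVM, and across regions at 0.106, 0.02 and -0.014 in saline and 0.203, 0.076 and -0.037 in CFA. Differently numbered thalamus saline and CFA libraries correlated at 0.03, -0.448, -0.317, 0.312, -0.142 and -0.116. The 0.312 was that of thalamus saline 2 with thalamus CFA 3, so not every library correlated best with its own number. With the replicate number as a block there were 758 shared rises and 387 falls, and 713 rises and 523 falls in the thalamus. Without a block the thalamus had 555 rises and 39 falls.

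Of the 102 named genes that were called, 76 kept their call in all 12 fits that left out 1 library. Beside those named with their values, calls were lost in 11 of these fits for Abca1, 9 for Gjc3 and Gabrg1, 7 for Cd8a, 6 for Mog, 5 for Rgs5, 4 for Calb1 and Ccl2, 3 for Rasgef1b and Mx1, and 1 for Crh and Cxcl10. Direction changed only for 4 genes not called. Penk changed by 0.0095 with quality weights and by 0.16 without thalamus saline 1 and CFA 1. Its range with 1 library left out was -0.37 to 0.026, above 0 without thalamus saline 1. Pdyn changed by 0.028 without thalamus saline 1 and CFA 1, with a leave-one-out range of -0.19 to 0.14, above 0 without thalamus saline 1 or thalamus CFA 3. Tph2 changed by 0.27 with a pseudocount of 0.1 and 0.0044 with the same total, with a leave-one-out range of -0.18 to 0.062, above 0 without RVM saline 1, RVM saline 3, RVM CFA 1 or RVM CFA 2. Tac1 changed by -0.001998 with quality weights, with a leave-one-out range of -0.016 to 0.27, below 0 without thalamus saline 2. Groups of 3 libraries limit the precision, and how far depth does was not tested.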

Other observations

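The circadian clock, proliferation and oligodendrocyte precursor lists gave at most 1 call each, where 5.08% of all genes tested rose and 2.26% fell. None of 16 circadian clock genes was called in the shared fit. Arntl, the core activator of the clock, had the smallest p, with a change of -0.40 ± 0.11 (limma adjusted p 0.051), and its repressor Per1 changed by -0.88 in the thalamus and -0.19 in the RVM. Of 10 proliferation genes Mcm6, a subunit of the replicative helicase, rose by 0.56 ± 0.14, a call lost in 8 of the 12 fits that left out 1 library and without thalamus CFA 1 and 2. Of 10 oligodendrocyte precursor genes C1ql1, a secreted C1q-like protein, fell by 0.52 ± 0.13, with levels of 321, 259 and 414 FPKM in the RVM saline libraries and 167, 193 and 239 in RVM CFA, a call lost in 9 of the 12 and without thalamus CFA 1 and 2.

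Of the 745 shared rises, 163 belonged to a list described here, as did 19 of the 331 falls and 648 of the 14671 genes tested, so most of the called genes lie outside the lists.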
